A study of Homo sapiens with 12 samples.

Results

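The TRiC chaperonin (also called CCT) is the folding machine of the cytosol, and its 8 subunit genes are described here: TCP1, CCT2, CCT3, CCT4, CCT5, CCT6A, CCT7 and CCT8. Each of the 8 was found once by its symbol in both expression tables, which hold 25369 rows each. The genes were chosen by name as the subunits of a single complex, with the levels of day 3 and the ratios among subunits in these same libraries already known. Comparisons that use day 3, and the ratios, are therefore given as descriptions with no test. Day 6 was tested against day 0, and so was the difference of that change between the cell lines; these contrasts compare no level of day 3, but they share the day 0 libraries with the descriptions of day 3, and their estimate of spread includes the day 3 libraries.

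The RNA came from TMD8 and OCI-Ly7, which are 2 established cell lines from human diffuse large B cell lymphoma; TMD8 is of the activated B cell type (ABC) and OCI-Ly7 of the germinal centre type (GCB). All cells, those of day 0 included, carried a doxycycline-inducible single guide RNA against PRMT5, an enzyme that methylates arginine residues symmetrically. Doxycycline was given at 20 ng/ml for 0, 3 or 6 days, and each of the 6 groups (line and day) has 2 libraries, 12 in all. The day 0 cells are the controls; cells with a non-targeting guide were not analysed here, so the effects of the antibiotic and of time in culture cannot be told apart from those of the guide. Nothing in the labels says whether the guide cells of a line are 1 clone.

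TRiC is a double ring in which each ring holds 1 copy of every subunit, and the subunits are paralogues that take fixed neighbours. It binds newly made chains, closes its built-in lid with the energy of ATP and releases them folded; actins, tubulins and many WD40-repeat proteins are its best known clients. Chains reach it from the HSP70 system and from prefoldin, and phosducin-like proteins assist it with part of its clients. All 8 proteins are needed for the ring, so their transcripts are usually set side by side.

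CCT7 and CCT3 had the highest levels and TCP1 the lowest in both lines, and the lines parted between day 3 and day 6. In OCI-Ly7 all 8 transcripts fell from day 0 to day 6, CCT4 by most. In TMD8 all 8 were lowest at day 3 and most stood near their starting FPKM at day 6. Of all genes in TMD8, 83.8% had both day 3 libraries below both of day 0. After scaling for this shift (described below), the subunits' median log2 change from day 0 was -0.02 at day 3 and 0.39 at day 6. FPKM are fragments counted per length of transcript and per size of the library, so the levels of different genes can be set side by side. The change at day 6 was called lower in OCI-Ly7 than in TMD8 for all 8 subunits, beside 6.3% of all genes (19% after scaling). Less RNA of a gene in every cell, or fewer cells that express it, could each lower a bulk value. These cannot be told apart in these data.

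Sequence near the start sites is shown for 3 genes whose level shifted most against that of other subunits: TCP1, CCT8 and CCT4. In TMD8 the ratio of TCP1 to CCT8 changed most of all pairs by day 6, as their levels came closer. In OCI-Ly7 the ratio of CCT4 to CCT6A changed most, as their levels moved apart. The sequences are cut from RefSeq windows (GRCh38.p14) that run from 250 bases before to 50 after a start. They show only bases free of annotated exons, written 5′ to 3′ on the strand of the gene. Capitals mark a CCAAT box, here read on the opposite strand as ATTGG.
TCP1, chr6:159789750-159789811, minus strand, ending 147 bases before the start, between the divergent genes TCP1 and MRPL18: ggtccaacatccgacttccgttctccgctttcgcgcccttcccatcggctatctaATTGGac
CCT8, chr21:29073798-29073898, minus strand, ending 149 bases before the start: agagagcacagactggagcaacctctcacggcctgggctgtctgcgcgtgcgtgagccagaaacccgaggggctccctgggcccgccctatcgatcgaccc
CCT4, chr2:61888843-61888906, minus strand, ending 186 bases before the start: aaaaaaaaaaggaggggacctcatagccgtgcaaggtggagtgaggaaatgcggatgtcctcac

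RefSeq windows were matched for 7 of the 8 genes, with no entry for CCT6A. Over the whole windows and on both strands, CCAAT was found in 4 of the 9 windows of these 7 genes (CCT2, CCT3, CCT8 and TCP1), and in 34.6% of all 35116 windows. The letters GAANNTTC or TTCNNGAA, a part of the element that heat shock factor binds, were found in 3 of the 9 windows (CCT2, CCT4 and TCP1), and in 13.5% of all windows. The E-box CACGTG was found in none of them and in 7.26% of all windows. TCP1 and CCT2 held both of the first 2 motifs, and CCT3, CCT4 and CCT8 held 1 each. A match is a description of letters and not a bound site.

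TCP1 encodes CCT1, the subunit alpha, and had the lowest mean FPKM of the 8 in each of the 6 groups. Its TMD8 libraries held 116 and 78.9 FPKM before induction, 70.8 and 69.1 after 3 days, 120 and 125 after 6 days. Its OCI-Ly7 libraries held 105 and 114 FPKM, then 104 and 88.9, then 69.4 and 64.2. The TMD8 day 0 libraries lay far apart, and the first of them was close to the libraries of day 6; in OCI-Ly7 both libraries of day 6 were below all others.

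CCT2, the subunit beta, started at 176 and 166 FPKM in TMD8, had 141 and 136 after 3 days and ended with 187 and 199. The OCI-Ly7 course was 165 and 196 FPKM, then 144 and 135, then 108 and 98.9. Both day 6 libraries were the highest of the 6 in TMD8 and the lowest of the 6 in OCI-Ly7.

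CCT3, the subunit gamma, was the second most abundant transcript of the complex on every day. TMD8 libraries held 299 and 282 FPKM before induction, 217 and 225 after 3 days, 276 and 288 after 6 days. OCI-Ly7 libraries held 279 and 307 FPKM, then 254 and 228, then 190 and 175. The TMD8 libraries of day 6 overlapped those of day 0, whereas the 3 days of OCI-Ly7 did not overlap.

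CCT4, the subunit delta, had the largest loss of the 8 in OCI-Ly7. Its OCI-Ly7 cells started at 143 and 182 FPKM, had 158 and 124 after 3 days and ended with 80.6 and 64.0. The TMD8 course was 191 and 171 FPKM, then 145 and 150, then 192 and 193. The OCI-Ly7 libraries of days 0 and 3 overlapped and were unlike each other within a day, and both libraries of day 6 lay well below them; in TMD8 both libraries of day 3 were the lowest.

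CCT5, the subunit epsilon, held 186 and 174 FPKM before induction in TMD8, 142 and 142 after 3 days, 168 and 169 after 6 days. For OCI-Ly7 the values were 186 and 193 FPKM, then 169 and 151, then 135 and 120. In both lines the 3 days did not overlap, with day 6 between the other days in TMD8 and at the bottom in OCI-Ly7.

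CCT6A, the subunit zeta, began at 177 and 161 FPKM in TMD8, had 143 and 140 after 3 days and ended with 184 and 193. The OCI-Ly7 libraries gave 230 and 230 FPKM, then 227 and 200, then 161 and 157. The lowest day was day 3 in TMD8 and day 6 in OCI-Ly7. CCT6A has near-identical pseudogene copies that can share its reads, so its level is uncertain to that extent: CCT6P1 was listed at 2.83 to 4.52 FPKM in TMD8 and 7.49 to 9.51 in OCI-Ly7.

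CCT7, the subunit eta, was the most abundant transcript of the complex in each of the 6 groups. Libraries of TMD8 had 338 and 312 FPKM at the start, 248 and 251 after 3 days, 287 and 301 after 6 days. Libraries of OCI-Ly7 had 350 and 377 FPKM, then 303 and 268, then 245 and 211. No 2 days overlapped in either line; day 6 lay between day 3 and day 0 in TMD8 and below both in OCI-Ly7.

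CCT8, the subunit theta, gave 220 and 204 FPKM before induction in TMD8, 179 and 170 after 3 days, 179 and 191 after 6 days. OCI-Ly7 gave 225 and 235 FPKM, then 216 and 192, then 153 and 148. It was the only subunit whose TMD8 libraries of days 3 and 6 overlapped.

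**Figure D1:**
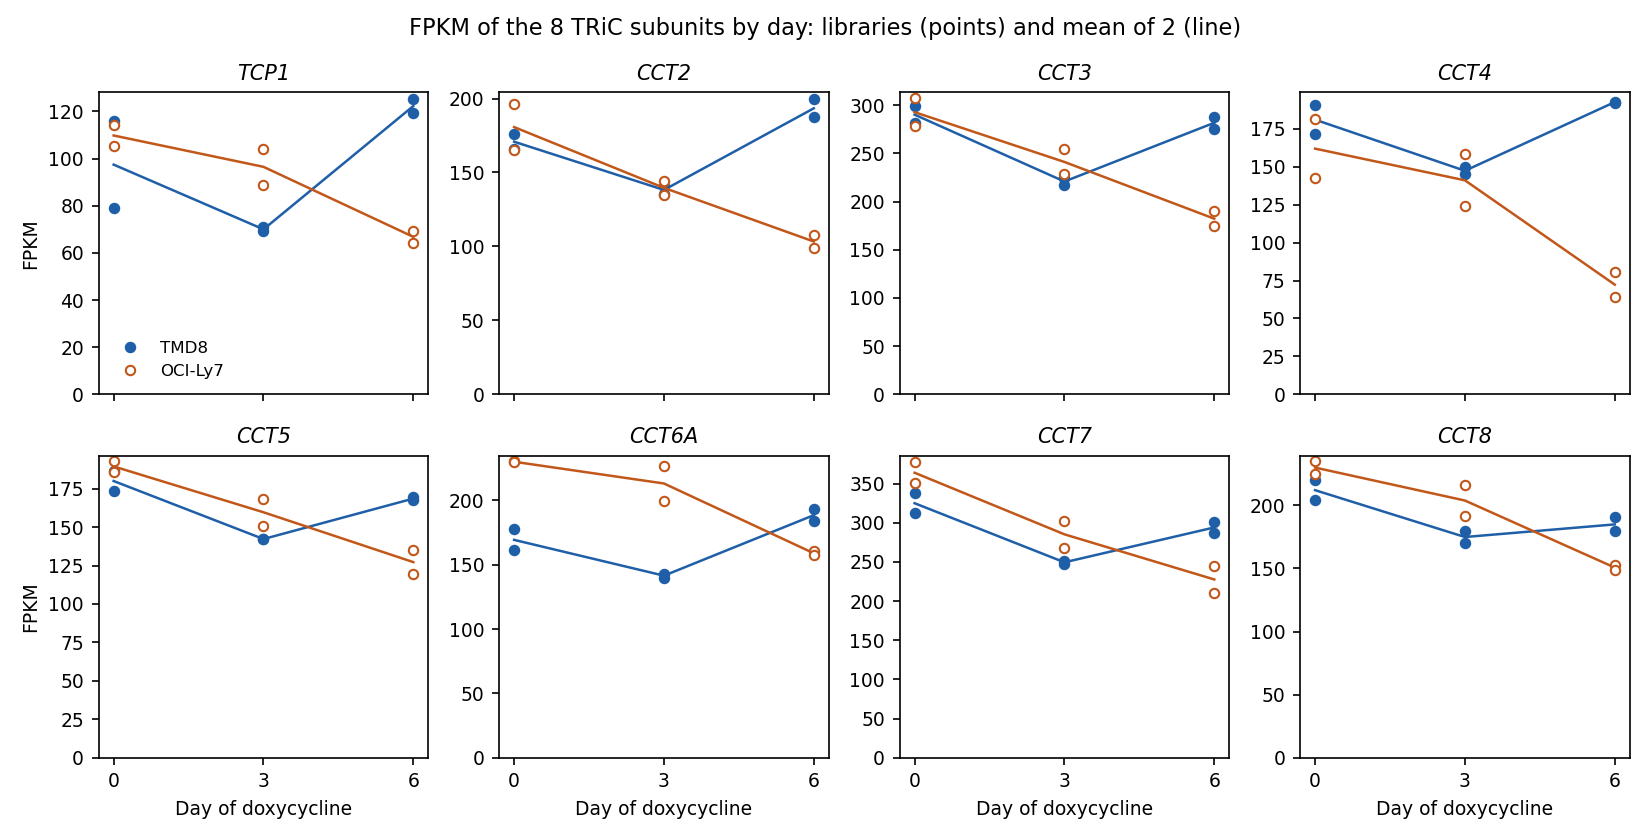
FPKM of each TRiC subunit (vertical axis, from 0) by day of doxycycline (horizontal axis) in TMD8 (filled blue) and OCI-Ly7 (open orange), with 1 point per library and a line through the mean of 2; the tables of the lines were made separately. The blue lines dip at day 3 and climb again, by least for CCT8, while the orange lines end at their lowest point on day 6.

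Every library holds its own common shift, which bears on all of these levels. Over the genes with a mean of at least 1 FPKM, the median log2 change was -0.27 at day 3 and -0.31 at day 6 against day 0 in TMD8 (10456 genes), and -0.12 and -0.13 in OCI-Ly7 (11016 genes). The row of the 45S pre-ribosomal RNA (RNA45S5) moved with it, at 5222 and 7950 FPKM in the TMD8 libraries of day 0 and 17581 to 20452 afterwards, against 10374 to 11163 and then 14278 to 20542 in OCI-Ly7; its part in the results was not tested. Each change is therefore also given after median-ratio scaling, which takes, within a line, the ratio of every gene to its geometric mean and sets the median of these ratios equal in all libraries. The targeted transcript, PRMT5, changed at day 6 by -0.26 in TMD8 (0.10 after scaling, adjusted p = 0.201) and by -1.04 in OCI-Ly7 (-0.89 after scaling, adjusted p = 0.0284; limma), so that its loss as RNA in TMD8 turned with the scaling. The sums of FPKM ran from 397477 to 467844 per library and the number of fragments is not given in the sources used here. Of the B cell markers CD79A was the highest in TMD8 and CD79B in OCI-Ly7. CD3D, CD3E, CD3G and CD2 were at 0 throughout; EPCAM was at 0 in TMD8 and 3.90 to 5.91 FPKM in OCI-Ly7.

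At day 3 the complex was lower in both lines as given, but not beyond the common shift in TMD8. The summed FPKM of the 8 transcripts was 1703 and 1549 at day 0 in TMD8, and 1286 and 1283 at day 3. After scaling these sums were 1414 and 1359, then 1341 and 1369, which overlap. Both day 3 libraries lay below both day 0 libraries for 8 of 8 subunits, as they did for 83.8% of all genes, and after scaling for 3 of 8 (CCT3, CCT5 and CCT7) beside 26.4% of all genes. The log2 differences (day 3 minus day 0) ran from -0.45 for TCP1 to -0.26 for CCT6A as given, with a median of -0.32. After scaling they ran from -0.14 for TCP1 to 0.05 for CCT6A, with a median of -0.02.

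OCI-Ly7 was also lower at day 3, by less than TMD8 as given but not after scaling. Its summed FPKM was 1683 and 1834 at day 0 and 1574 and 1386 at day 3. Both day 3 libraries were below both of day 0 for 7 of 8 subunits, all but CCT4, beside 41.1% of all genes; after scaling this held for 5 of 8 (CCT2, CCT3, CCT5, CCT7 and CCT8) beside 19.6%. The log2 differences had a median of -0.22 and ran from -0.37 for CCT2 to -0.11 for CCT6A; after scaling the median was -0.09, and CCT2 (-0.24) and CCT7 (-0.22) remained the lowest.

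From day 3 to day 6 the complex moved in opposite directions. In TMD8 the sum came back to 1593 and 1660 FPKM, and in OCI-Ly7 it went on down to 1141 and 1038. Both TMD8 libraries of day 6 lay above both of day 3 for 7 of 8 subunits, all but CCT8, beside 22.8% of all genes, and for 8 of 8 after scaling beside 30.5%. The log2 differences (day 6 minus day 3) in TMD8 had a median of 0.37 and were highest for TCP1 (0.80) and CCT2 (0.48) and lowest for CCT8 (0.08). In OCI-Ly7 both day 6 libraries lay below both of day 3 for 8 of 8 subunits, beside 30.5% of all genes, and for 8 of 8 after scaling beside 31.4%. Here the median was -0.42, with CCT4 lowest at -0.95 and CCT7 and CCT5 at -0.33 each. The median over all genes for the same step was -0.05 in TMD8 and -0.01 in OCI-Ly7.

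All 8 subunits fell in OCI-Ly7 between day 0 and day 6, in a line where 9.39% of the 11016 genes were called lower. The fall was largest for CCT4, with a log2 change of -1.15 (SE 0.193, adjusted p = 0.0347; limma, Benjamini-Hochberg over all genes, 2 libraries a group). CCT2 followed at -0.80 (SE 0.118), then TCP1 at -0.71 (SE 0.116), CCT3 at -0.68 (SE 0.106) and CCT7 at -0.68 (SE 0.118). CCT8 (-0.61, SE 0.0968), CCT5 (-0.57, SE 0.107) and CCT6A (-0.53, SE 0.0959) changed least. The adjusted p of the 8 ran from 0.0345 to 0.0373, and the median of the complex was -0.68 beside -0.13 for all genes. After scaling 8 of 8 were again lower, beside 8.05% of all genes, with log2 changes from -0.9995 for CCT4 to -0.38 for CCT6A and adjusted p from 0.0251 to 0.0284. The calls were close to the threshold: no subunit passed without either day 0 library (adjusted p up to 0.258) or either day 6 library (up to 0.145), nor without the filter on low genes (0.0533 to 0.0555), and after scaling none passed when any 1 of the 6 libraries was left out (0.0506 to 0.168). The direction stayed negative for all 8 in each of these fits on FPKM as given.

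In TMD8 the subunits did not share a direction at day 6 as given. CCT8 fell, with a log2 change of -0.20 (SE 0.0674, adjusted p = 0.0476; limma), in a line where 51.7% of the 10456 genes were called lower, and 0 of 8 subunits were called higher (1, CCT2, at an unadjusted p under 0.05), beside 3.89% of all genes. TCP1 (0.35, adjusted p = 0.117), CCT2 (0.18, adjusted p = 0.0549), CCT6A (0.16, adjusted p = 0.0938) and CCT4 (0.09, adjusted p = 0.285) had positive values that did not pass. CCT7 (-0.14, adjusted p = 0.0950), CCT5 (-0.09, adjusted p = 0.212) and CCT3 (-0.04, adjusted p = 0.567) had negative values that did not pass. The median of the complex was 0.02, where that of all genes was -0.31. The single call of CCT8 was lost without any 1 of the 6 libraries (adjusted p of CCT8 without the first day 0 library 0.225), with the replicate block (0.0837) and in the fit of days 0 and 6 alone. Without that first day 0 library TCP1 passed instead (0.63, adjusted p = 0.0176).

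Set against the common shift, the TMD8 subunits were high at day 6. After median-ratio scaling 7 of 8 rose, beside 15.4% of all genes called higher and 13.5% called lower. TCP1 changed by 0.71 (SE 0.150, adjusted p = 0.0239), CCT2 by 0.54 (SE 0.0498, adjusted p = 0.00461) and CCT6A by 0.52 (SE 0.0532, adjusted p = 0.00574). CCT4 (0.45), CCT3 (0.32), CCT5 (0.27) and CCT7 (0.22) also passed, with adjusted p from 0.0108 to 0.0384. CCT8 was at 0.17 and did not pass (adjusted p = 0.0638). Scaled levels of CCT2 were 146 and 145 before induction, then 147 and 145, then 214 and 211, so both libraries of day 6 stood apart from 4 nearly equal ones. When 1 library was left out after scaling, 3 to 6 of 8 passed: 3 without either day 0 library or the first of day 6, 5 without the second of day 6, and 6 without either of day 3. The sign for CCT3, CCT5, CCT7 and CCT8 turned between FPKM as given and scaled FPKM. The called rise of CCT3, CCT5 and CCT7 is therefore seen on scaled FPKM only. Both scales are relative to the other genes of a library. TCP1, CCT2, CCT4 and CCT6A were positive on both scales, but none of them was called higher on FPKM as given.

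The change at day 6 differed between the lines for 8 of 8 subunits, each lower in OCI-Ly7, beside 6.3% of 9688 genes. The difference (OCI-Ly7 minus TMD8, log2) was largest for CCT4 at -1.24 (SE 0.220, adjusted p = 0.00691; limma over 12 libraries), TCP1 at -1.06 (SE 0.223, adjusted p = 0.0121) and CCT2 at -0.98 (SE 0.133, adjusted p = 0.00342). CCT6A (-0.69), CCT3 (-0.64), CCT7 (-0.53), CCT5 (-0.48) and CCT8 (-0.41, adjusted p = 0.0299) followed. The median was -0.66, where that of all genes was 0.16. After scaling 8 of 8 differed as well, beside 19% of all genes, from -1.45 for CCT4 to -0.62 for CCT8, and 8 of 8 passed whichever library was left out (adjusted p up to 0.00986). On FPKM as given the number was 5 of 8 without the second day 0 library of TMD8 or of OCI-Ly7, 6 or 7 without other libraries of days 0 and 6, and 8 without the first day 6 library of OCI-Ly7 or any library of day 3.

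**Figure D2:**
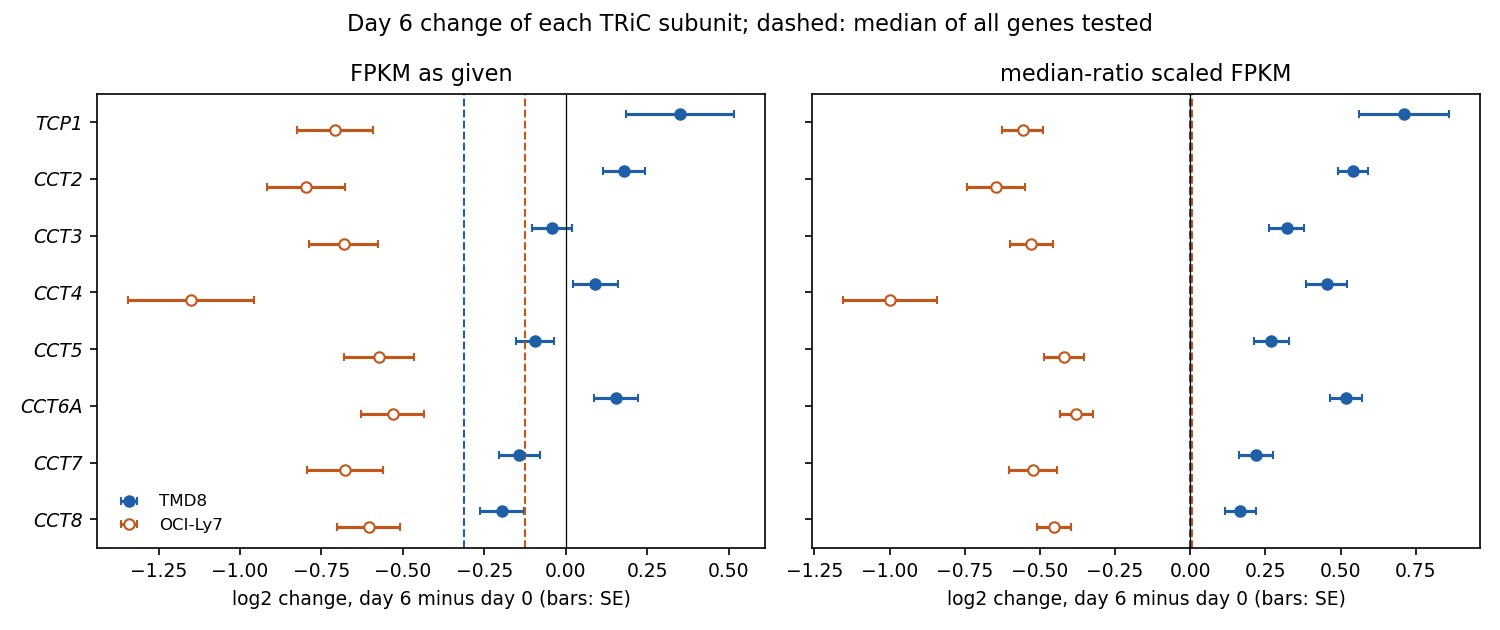
Log2 change from day 0 to day 6 of each subunit (horizontal axis, bars are the SE of limma) in TMD8 (filled blue) and OCI-Ly7 (open orange), on FPKM as given (left) and after median-ratio scaling (right); dashed lines are the medians of all genes tested. The orange points lie left of 0 in both panels, with CCT4 furthest, and the blue points lie around 0 on the left (-0.20 to 0.35) and right of 0 after scaling (0.17 to 0.71).

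Before induction CCT7, CCT3 and TCP1 held the same places in the order of levels in both lines, whereas CCT6A and CCT4 did not. CCT7 led with a mean of 325 FPKM in TMD8 and 364 in OCI-Ly7, followed by CCT3 (290 and 293), and TCP1 came last (97.4 and 110). In TMD8, CCT8 held the third place at day 0 (212 FPKM), above CCT4, CCT5, CCT2 and CCT6A, which lay between 169 and 181 and whose libraries overlapped with those of their neighbours; CCT6A was the lowest of these 4. In OCI-Ly7, CCT6A and CCT8 shared the third place (230 FPKM each, overlapping), and CCT5, CCT2 and CCT4 overlapped in turn below them. Of these overlapping neighbours, CCT5 was above CCT2 within each TMD8 library and CCT2 above CCT4 within each OCI-Ly7 library. The order of the others turned between the libraries. The means of all 8 in the tables of both lines are set side by side with no test, since each table was normalized by itself.

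At day 6 the order by mean had shifted in TMD8, while that of OCI-Ly7 was the one of day 0. In TMD8, CCT8 had gone from the third place to the sixth (185 FPKM), below CCT2 (193), CCT4 (193) and CCT6A (189). Its libraries overlapped with those of CCT2 and CCT6A, and those of CCT7 (294) now overlapped with those of CCT3 (282). Within each of the libraries, though, CCT8 was below CCT2 and CCT6A. CCT3 was likewise below CCT7 in each (ratios of 0.963 and 0.955). In OCI-Ly7, CCT4 kept the seventh place but came down to 72.3 FPKM, a level that overlapped with that of TCP1 (66.8), whereas at day 0 the libraries of CCT4 and TCP1 had been apart. At day 3, CCT7, CCT3 and CCT8 led in TMD8 without overlap (250, 221 and 175 FPKM). In OCI-Ly7 CCT7, CCT3 and CCT6A led (285, 241 and 213 FPKM). There CCT6A overlapped with CCT8 but was above it within each library (ratios of 1.05 and 1.04).

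The share of each subunit in the summed FPKM of the 8 does not depend on how a library is scaled. In TMD8 the share of CCT8 was 12.9% and 13.2% before induction, 13.95% and 13.3% after 3 days, 11.3% and 11.5% after 6 days. The share of CCT7 was 19.8% and 20.2%, then 19.3% and 19.6%, then 18.0% and 18.2%. The share of CCT2 was 10.3% and 10.7%, then 10.96% and 10.6%, then 11.8% and 12.01%. CCT8 and CCT7 thus gave way at day 6, and CCT2 took a larger share. TCP1 took 6.81% and 5.09% at the start, then 5.51% and 5.39%, then 7.50% and 7.54%. CCT6A took 10.4% in both day 0 libraries and 11.6% ± 0.0671 (SD, n = 2) at day 6.

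In OCI-Ly7 the share of CCT4 was lowest at day 6: 8.47% and 9.89% at the start, then 10.1% and 8.95%, then 7.07% and 6.17%. CCT2 took 9.81% and 10.7% at day 0 and 9.44% and 9.53% at day 6, also without overlap. CCT5 (11.1% and 10.5%, then 11.8% and 11.5%) and CCT6A (13.7% and 12.5%, then 14.1% and 15.2%) took larger shares at day 6. The shares of CCT3 (16.7% ± 0.135 at day 0 and 16.7% ± 0.125 at day 6, SD, n = 2) and TCP1 (6.25% ± 0.0273 and 6.14% ± 0.0734) hardly moved.

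**Figure D3:**
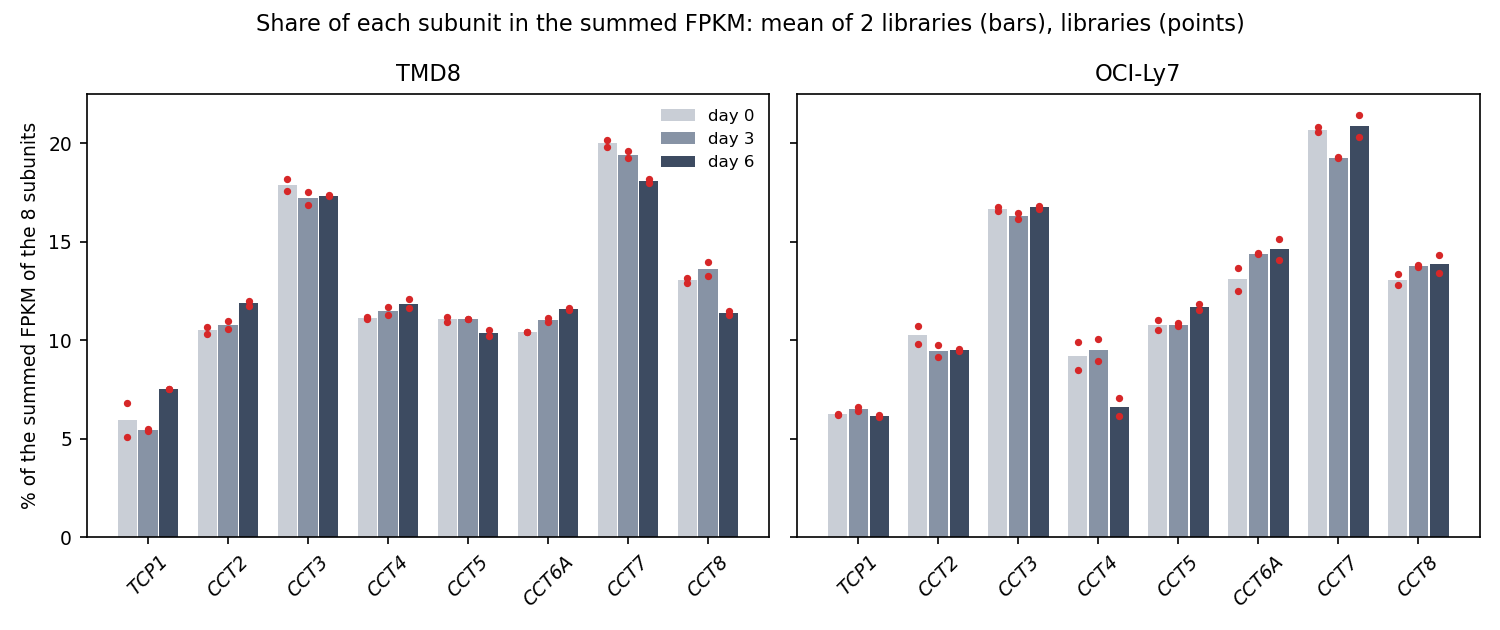
Share of each subunit in the summed FPKM of the 8 (vertical axis, %, from 0) at days 0, 3 and 6 (light to dark bars, means of 2 libraries; red points are the libraries), for TMD8 (left) and OCI-Ly7 (right). In TMD8 the day 6 bars are lower for CCT7 and CCT8 and higher for TCP1 and CCT2, and in OCI-Ly7 the day 6 bar of CCT4 stands out at 6.62%.

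Ratios between pairs of subunits restate the same values as the shares. Of the 28 pairs, 7 in each line had a mean ratio that differed by more than 1.25-fold between day 6 and day 0. At day 3, 0 in each line did. In OCI-Ly7 all 7 pairs held CCT4. In TMD8 they were TCP1 with CCT3, CCT5, CCT7 and CCT8, CCT2 with CCT7 and CCT8, and CCT6A with CCT8. The ratio of TCP1 to CCT8 moved most in TMD8: 0.528 and 0.386 before induction, then 0.395 and 0.406, then 0.667 and 0.657, a log2 shift of 0.55 at day 6. Since the day 0 libraries differ in TCP1, the steadier example is CCT2 to CCT8, at 0.800 and 0.811, then 0.786 and 0.796, then 1.05 and 1.05 (log2 shift 0.38). In OCI-Ly7 the ratio of CCT4 to CCT6A moved most: 0.619 and 0.790 before induction, then 0.699 and 0.621, then 0.502 and 0.407 (log2 shift -0.63). The median absolute shift over the 28 pairs went from 0.07 (day 3) to 0.21 (day 6) in TMD8, and from 0.09 to 0.13 in OCI-Ly7.

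Some of the subunit genes overlap a neighbour or start close to one, and the strand setting of the counting is not given in the sources used here, so whether reads were shared is not known. In the GENCODE 29 annotation TCP1 overlaps ACAT2, an enzyme of acetyl-CoA metabolism, on the opposite strand. ACAT2 changed by -0.66 at day 6 in TMD8 (adjusted p = 0.00261; limma) and by -1.10 in OCI-Ly7 (adjusted p = 0.0345), and its mean was 55.4 and 30.2 FPKM at day 0. MRPL18, a mitochondrial ribosomal protein gene that starts head to head with TCP1, rose in TMD8 as given (0.31, adjusted p = 0.0109, limma). On that scale TCP1 was at 0.35 and did not pass (adjusted p = 0.117). In OCI-Ly7 MRPL18 was at -0.10 (adjusted p = 0.527). CCT4 overlaps COMMD1, a copper and protein sorting factor, on the opposite strand: in OCI-Ly7 COMMD1 had 56.9 and 53.9 FPKM before induction, against 54.8 and 50.7 after 6 days (log2 change -0.07, adjusted p = 0.651), where CCT4 fell. TSACC, which overlaps CCT3, was at or below 1.32 FPKM in all libraries. TCP1 and CCT6A also host small nucleolar RNAs within their introns. Of the CCT6 paralogues and pseudogenes, CCT6P3 fell in TMD8 at day 6 (-1.04, adjusted p = 0.0155; limma), but not after scaling (-0.76, adjusted p = 0.0850), and was at -0.50 in OCI-Ly7 (adjusted p = 0.430).

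The HSP70 system, which hands chains to TRiC, went up in TMD8 and down in OCI-Ly7 at day 6. Of 7 genes measured, 6 rose in TMD8 at day 6 as given (beside 3.89% of all genes) and 7 after scaling (beside 15.4%), and 5 fell in OCI-Ly7 on both scales (beside 9.39% and 8.05%); their median log2 change reached 0.36 in TMD8 (0.70 after scaling) and -0.56 in OCI-Ly7 (-0.41 after scaling). HSPA8, the constitutive HSP70, had 640 and 561 FPKM before induction in TMD8, then 513 and 498, then 838 and 956 (log2 change 0.58, SE 0.0919, adjusted p = 0.00479; limma). In OCI-Ly7, HSPA8 was 504 and 641 FPKM, then 429 and 428, then 217 and 197 (-1.46, SE 0.134, adjusted p = 0.0281). HSPH1, a nucleotide exchange factor of HSP70, changed by 0.58 in TMD8 (adjusted p = 0.00562) and by -1.58 in OCI-Ly7 (adjusted p = 0.0461). DNAJB1, a J-domain cochaperone, changed by 0.36 (adjusted p = 0.0122) and -0.57 (adjusted p = 0.0361). HSPA1B, an inducible HSP70 whose reads cannot be parted from those of HSPA1A, changed by 0.39 in TMD8 (adjusted p = 0.0360) and was at -0.13 in OCI-Ly7 (adjusted p = 0.564). The change was called lower in OCI-Ly7 than in TMD8 for 5 of the 7, beside 6.3% of all genes. After scaling this held for 7 of the 7, beside 19% of all genes. For HSPA8 the difference was -2.04 (adjusted p = 0.000795; limma).

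The mitochondrial chaperonin HSPD1 (HSP60) and its lid HSPE1 (HSP10) differed between the lines too, HSPD1 by -0.94 (adjusted p = 0.00515) and HSPE1 by -0.82 (adjusted p = 0.00438; limma). HSPD1 fell in OCI-Ly7 from 222 and 264 FPKM to 132 and 116 (-0.97, adjusted p = 0.0345), and was at -0.02 in TMD8 (adjusted p = 0.800; 0.34 after scaling, adjusted p = 0.0257). HSPE1 rose in TMD8 from 183 and 169 FPKM to 258 and 242 (0.50, adjusted p = 0.00329).

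Prefoldin is a jellyfish-shaped carrier of unfolded actin and tubulin. Of its 6 genes 1 rose in TMD8, PFDN5 (0.38, adjusted p = 0.0150, limma), beside 3.89% of all genes. After scaling 5 of the 6 rose, beside 15.4%. In OCI-Ly7 VBP1 alone fell (-0.62, adjusted p = 0.0345), on both scales, beside 9.39% and 8.05% of all genes. The median of the 6 prefoldin genes was 0.07 in TMD8 (0.41 after scaling) and -0.02 in OCI-Ly7 (0.13 after scaling). Of the 8 genes for prefoldin-like proteins and the R2TP complex, which assembles large machines with HSP90, 4 fell in each line, beside 51.7% of all genes in TMD8 and 9.39% in OCI-Ly7, with medians of -0.22 in TMD8 and -0.41 in OCI-Ly7. After scaling 1 rose and 1 fell in TMD8, beside 15.4% and 13.5% of all genes. In OCI-Ly7 4 fell after scaling, beside 8.05%. WDR92 fell in TMD8 (-0.74, adjusted p = 0.00318; -0.42 after scaling, adjusted p = 0.0189), and the ATPase RUVBL1 was lowest in OCI-Ly7 (-0.58, adjusted p = 0.0412).

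Phosducin-like cofactors held 4 measured genes of 5, with 1 called lower in each line, beside 51.7% of all genes in TMD8 and 9.39% in OCI-Ly7. PDCL, which helps TRiC build G protein beta-gamma dimers, fell in TMD8 (-0.40, adjusted p = 0.00939; limma) but not after scaling (-0.07, adjusted p = 0.451). TXNDC9, an inhibitor of the folding cycle, fell in OCI-Ly7 (-0.68, adjusted p = 0.0345; -0.54 after scaling, adjusted p = 0.0503). After scaling 3 of the 4 rose in TMD8, beside 15.4% of all genes, and in OCI-Ly7 none passed (1 at an unadjusted p under 0.05, limma).

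Actins and tubulins are the most abundant clients that TRiC folds. Of their 12 genes measured, 4 fell in TMD8 (beside 51.7% of all genes), 2 after scaling (beside 13.5%), and 2 in OCI-Ly7 on both scales (beside 9.39% and 8.05%), and 0 rose in either line on either scale (1 had a positive change at an unadjusted p under 0.05, in TMD8 after scaling; limma). ACTB, the cytoplasmic beta-actin, had 4859 and 4324 FPKM before induction in TMD8, then 2915 and 3366, then 1925 and 2213 (-1.15, SE 0.108, adjusted p = 0.00183; -0.79 after scaling, adjusted p = 0.0103; limma). In OCI-Ly7 ACTB was at -0.20 (adjusted p = 0.301). ACTG1, the gamma-actin, changed by -1.03 in TMD8 (adjusted p = 0.00167). TUBA4A, an alpha-tubulin, was 34.9 and 37.7 FPKM at day 0 in OCI-Ly7 and 3.83 and 3.02 at day 6 (-3.08, adjusted p = 0.00240), and its TMD8 libraries were too far apart to call (10.2 and 32.6 FPKM at day 6). TUBA1C fell in OCI-Ly7 (-0.84, adjusted p = 0.0351). Actins and alpha-tubulins have near-identical copies, so the split of reads among them is uncertain.

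Of 11 WD40 and other clients, 7 fell in TMD8 as given (51.7% of all genes did), led by STAT3 (-0.68, adjusted p = 0.00183, limma). After scaling 3 rose, beside 15.4% of all genes, and 1, STAT3, fell (-0.32, adjusted p = 0.0145), beside 13.5%. In OCI-Ly7 GNB1, a G protein beta subunit, was the single gene of the 11 to fall, on both scales (-0.46, adjusted p = 0.0431). The shares of all genes were 9.39% and 8.05% there. The tubulin cofactors, which take over tubulin after TRiC, had 5 of 6 genes lower in TMD8, where 51.7% of all genes were, and 1 after scaling, where 13.5% were (TBCD, -0.35, adjusted p = 0.0192), and 0 of 6 in OCI-Ly7 on FPKM as given (2 at an unadjusted p under 0.05; TBCE was at -0.67, adjusted p = 0.0524). Of the chaperonin-like BBS genes, which form part of a complex with TRiC subunits, 1 of 2 measured fell in TMD8, beside 51.7% of all genes. In OCI-Ly7 2 of 3 fell, beside 9.39%. After scaling BBS10 alone fell, in OCI-Ly7 (-0.51, adjusted p = 0.0443, limma), beside 8.05% of all genes.

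**Figure D4:**
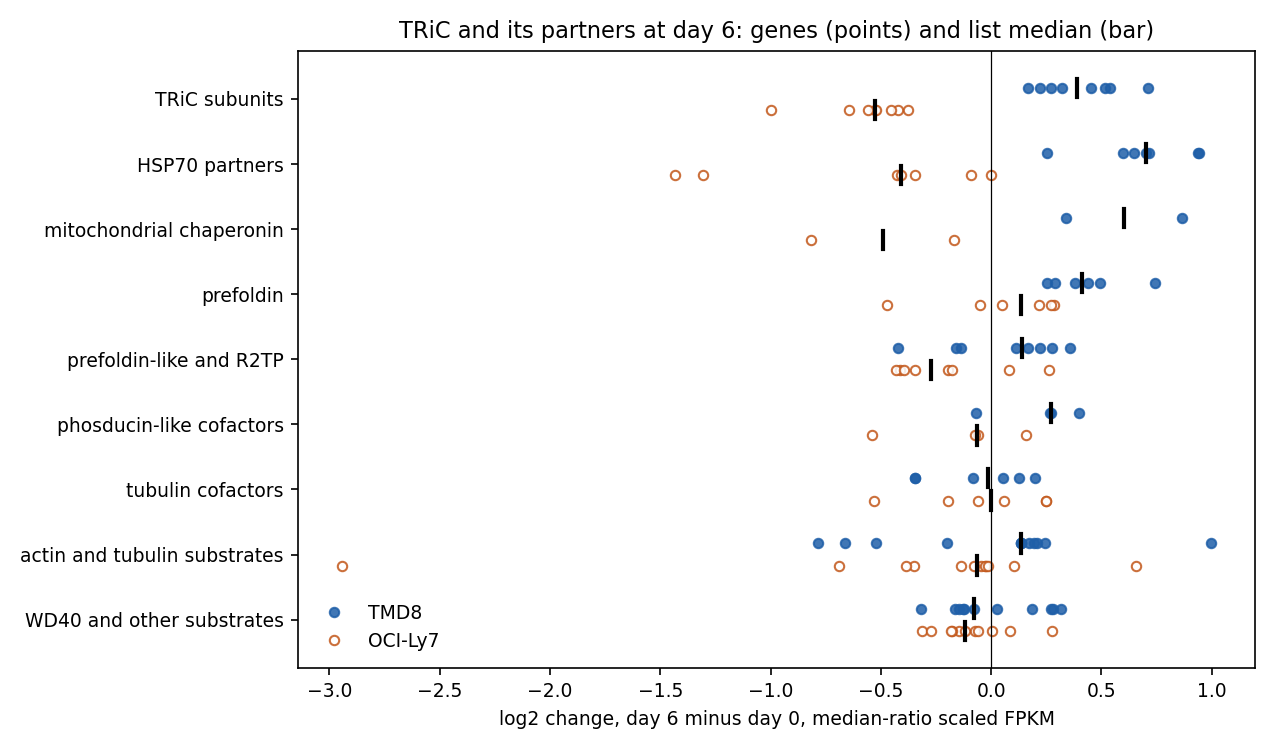
Log2 change from day 0 to day 6 after median-ratio scaling (horizontal axis) of the measured genes of each list (points; TMD8 filled blue, OCI-Ly7 open orange) with the median of the list (black bar). TRiC, HSP70 partners and the mitochondrial chaperonin lie right of 0 in TMD8 and mostly left of 0 in OCI-Ly7, and the medians of the tubulin cofactors and the client lists lie between -0.12 and 0.14; single clients lie further out, among them ACTB at -0.79 in TMD8 and TUBA4A at -2.94 in OCI-Ly7.

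HSF1 and MYC, factors known to act on chaperonin genes, are given here as RNA only. HSF1 changed by -0.39 in TMD8 (adjusted p = 0.00913; -0.04 after scaling, adjusted p = 0.630; limma) and was at 0.01 in OCI-Ly7 (adjusted p = 0.967). MYC fell in both lines, with log2 changes of -0.85 in TMD8 (adjusted p = 0.00383) and -0.70 in OCI-Ly7 (adjusted p = 0.0345), and its difference between the lines was 0.15 (adjusted p = 0.560). The transcript level does not measure the activity of either factor.

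The genes most alike to the complex in course were looked for among those with a mean of at least 10 FPKM in both lines, by Pearson correlation over the 12 libraries of scaled log2 values, each line centred on its mean. The 6 closest genes outside the complex were FARSB (r = 0.993), a subunit of phenylalanyl-tRNA synthetase; HSPA8 (0.988); POLR2C (0.986), a subunit of RNA polymerase II; PA2G4 (0.985), a growth-related RNA-binding protein; RRM2 (0.980), the small subunit of ribonucleotide reductase; and HNRNPF (0.979), a splicing factor. The 8 subunits themselves correlated with their own mean at 0.928 (CCT8 and TCP1) to 0.988 (CCT3 and CCT5). These are descriptions: the 12 points share 6 groups and their scaling, and a gene high at day 6 in TMD8 and low in OCI-Ly7 scores well. FARSB was 66.8 and 59.7 FPKM at day 0 in TMD8 and 60.8 and 62.5 at day 6, and 63.3 and 66.4 then 43.0 and 39.7 in OCI-Ly7, close to the course of CCT3.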

How the data were processed

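The deposited values are FPKM that the authors computed per library, 1 table per line keyed by gene symbol; the submitters' processing notes name HISAT, StringTie and the build hg19, whose roles and versions are not given in the sources used here. Absolute depth, and so counting error, is unknown. Depth relative to the first day 0 library of a line was roughly estimated from rows of very low FPKM. In TMD8 it was 1.18 for the second day 0 library and 0.54 to 0.74 at days 3 and 6. In OCI-Ly7 it was 1.3 for the second day 0 library and 0.77 to 0.91 at days 3 and 6. Depth so estimated was lower at the later days, and its part in the results was not tested. The R package limma (3.58.1, R 4.3.3) compared the days of a line on log2(FPKM + 1), keeping genes whose 6 libraries averaged 1 FPKM or more, with a mean-dependent trend, 3 residual degrees of freedom, and Benjamini-Hochberg adjustment over all genes tested (threshold 0.05). All 8 subunits passed that filter in both lines. The difference between the lines was a contrast over 12 libraries (6 residual degrees of freedom). Fold changes are on the log2(FPKM + 1) scale. The fit was tested on simulated data. FPKM shares a limited total among all rows; median-ratio scaling, an equal FPKM sum, other pseudocounts and filters, no trend, a replicate block, days 0 and 6 alone and leaving out each library were tried. Nothing says that the 2 libraries of a day came from separate cultures, so p-values measure only the spread between these samples, which may be technical. Sample titles and the design text give the days used; the labels' treatment protocol lists different ones. The members and the lists were chosen with earlier results of these data known. All members are named; of other lists, up to 3 genes with the largest day 6 change per line, and the 6 genes most alike in course; neighbours that overlap a member were named after the annotation was read. Sequences are from RefSeq (GRCh38.p14); gene overlaps are from GENCODE 29 on GRCh38, another build than hg19, so no gene coordinates of the files are printed.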

Additional observations from a re-analysis of the deposited data

Results flagged for a closer look

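The change from day 0 to day 6 differed between OCI-Ly7 and TMD8 for each of the 8 subunits, always lower in OCI-Ly7. This is by the test of the difference itself (limma over 12 libraries, Benjamini-Hochberg over 9688 genes) on FPKM as given. Of all genes tested, 6.3% were called lower in this way, and 19% after median-ratio scaling. How the calls depend on single libraries is given below. On the log2 scale the difference was -1.24 for CCT4 (adjusted p = 0.00691), -1.06 for TCP1 (0.0121), -0.98 for CCT2 (0.00342) and -0.69 for CCT6A (0.00577). It was -0.64 for CCT3 (adjusted p = 0.00782), -0.53 for CCT7 (0.0218), -0.48 for CCT5 (0.0202) and -0.41 for CCT8 (0.0299). The level of RNA45S5 and the change of PRMT5 also differ between the lines, and their part in the difference was not tested. Groups of 2 libraries are too small for a check of single libraries that stand apart.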

How the results depend on the processing

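With 2 libraries a group and 3 residual degrees of freedom per line, calls near the threshold move with the fit. In TMD8 the number of subunits called at day 6 was 7 after median-ratio scaling (all higher), 1 with an equal FPKM sum (CCT2, higher, 0.26), and 0 with no filter, no trend, the replicate block or days 0 and 6 alone. Leaving out 1 library gave 0 to 1, and 3 to 6 when the values were scaled as well, an alternative chosen after seeing the data. In OCI-Ly7 the number was 0 with no filter, 0 to 8 when 1 library was left out and 0 when this was done after scaling. For the difference between the lines it was 5 to 8, and 8 throughout after scaling. Signs turned in TMD8 for CCT3 (0.32 after median-ratio scaling, 0.039 with an equal sum, -0.085 to 0.00064 leaving out 1 library), CCT5 (0.27), CCT7 (0.22) and CCT8 (0.17), the last 3 with median-ratio scaling alone. The causes of these moves were not tested.

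The median log2 change of the complex in TMD8 was -0.016 with median-ratio scaling and -0.12 with an equal sum at day 3 against day 0, 0.43 and 0.25 at day 6 against day 3, and 0.39 and 0.11 at day 6 against day 0. In OCI-Ly7 it was -0.093 and -0.091 at day 3 against day 0, and -0.53 and -0.58 at day 6 against day 0. Leaving out 1 library gave -0.38 to -0.24, 0.34 to 0.39 and -0.035 to 0.084 for these 3 steps in TMD8, and -0.34 to -0.13, -0.49 to -0.34 and -0.75 to -0.60 in OCI-Ly7. With 2 libraries a group, a share without 1 library is the value of the other, which is no check of stability. Of the single changes, 40 of 112 alternatives in OCI-Ly7 and 15 of 160 for the difference kept their sign but did not pass, and 0 turned.

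Nothing in the labels says what same-numbered libraries share beyond a number. The correlation of their deviations from the day means was -0.10, -0.15 and 0.08 in TMD8 and 0.13, -0.08 and 0.11 in OCI-Ly7. Whether they shared a culture or a batch cannot be known from these values. With the replicate block, 0 subunits passed in TMD8 (CCT8 adjusted p = 0.0837), 8 in OCI-Ly7 (0.0489) and 8 for the difference (up to 0.0493).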
